A study of Mus musculus with 16 samples.

Results

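The 44 genes described here are markers of the dividing cell: 22 that act in S phase, from *Mcm2* to *Uhrf1*, and 22 that act in mitosis, from *Mki67* to *Foxm1*. They were taken by gene symbol from a table of RNA-seq read counts, and all 44 were found among its 14474 genes. The cells were immortalized mouse keratinocytes that lack the integrin α3 subunit (MKα3−), and the same cells reconstituted with human α3 (MKα3+). Each line received laminin-332 (LN332, the main ligand of integrin α3β1 in skin) at 0.02 mg/mL or an equal volume of its vehicle, a PBS and glycine solution with azide, for 16 to 24 h. Both lines grew on collagen-coated dishes in low-calcium medium at 33 °C and 8% CO2, and each of the 4 groups had 4 libraries. The study's methods speak of experimental replicates for work in culture, and no source used here says whether these were separate cultures, so the p-values measure the spread between these libraries, which may be technical, and each genotype is 1 cell line. In bulk RNA, fewer cells in a given phase and less RNA per cell cannot be told apart.

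Before S phase, Cdc6 and Cdt1 load the MCM helicase, whose subunits are encoded by *Mcm2* to *Mcm7*, onto replication origins. Cyclin E and its kinase then start replication, Cdc45 and the GINS complex turn the helicase on, and E2F transcription factors drive the genes for these proteins and for nucleotide synthesis. In mitosis, Cdk1 with cyclin B and the Plk1 and Aurora kinases drive entry and spindle assembly, Bub1 and Bub1b hold the spindle checkpoint, and Cdc20 and Ube2c act with the anaphase-promoting complex to destroy cyclin B. Mitotic genes are commonly controlled through CCAAT boxes and a cell cycle homology region (CHR), bound by NF-Y and the DREAM or MuvB-B-Myb complexes, with FoxM1. In epidermis these genes mark the dividing basal keratinocytes.

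Upstream sequence from RefSeq (GRCm38.p6, the mm10 build) was matched for 35 of the 44 genes, and for 10680 genes of the table. In the 250 bases before the start, an E2F motif (TTTCCCGC, TTTCGCGC, TTTGCCGC or TTTGGCGC, on either strand) was present at 5 of 18 S-phase genes (27.8%), 1 of 17 mitotic genes (5.88%) and 3.38% of all promoters. A CHR motif (TTTGAA, either strand) was found at 3 of 18 S-phase genes (16.7%), 7 of 17 mitotic genes (41.2%) and 10.7% of all. A CCAAT box (CCAAT, either strand) was found at 12 of 18 (66.7%), 15 of 17 (88.2%) and 36.7% respectively. No 2 different motifs overlapped in the windows shown, while 2 E2F matches of *Mcm6* overlap each other, and a match describes the sequence only. The 150 bases upstream of the first exon are shown, 5′ to 3′ on the coding strand with every motif match in capitals, for the members that passed the test between the lines and had a promoter entry, and for *Mcm6*, an S-phase gene with 3 E2F matches. The windows are chr10:69352939-69353088 (minus strand) for *Cdk1*, chr13:100786571-100786720 (minus) for *Ccnb1*, chr2:164769748-164769897 (plus) for *Ube2c*, chr2:172370571-172370720 (minus) for *Aurka*, chr7:102441545-102441694 (plus) for *Rrm1*, chr5:30073626-30073775 (minus) for *Tyms* and chr1:128359706-128359855 (minus) for *Mcm6*.
Cdk1: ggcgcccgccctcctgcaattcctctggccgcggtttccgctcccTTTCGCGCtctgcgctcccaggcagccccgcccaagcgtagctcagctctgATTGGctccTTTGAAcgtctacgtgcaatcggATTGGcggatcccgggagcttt
Ccnb1: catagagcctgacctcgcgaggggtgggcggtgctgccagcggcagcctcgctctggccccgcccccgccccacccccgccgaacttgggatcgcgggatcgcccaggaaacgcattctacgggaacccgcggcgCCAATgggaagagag
Ube2c: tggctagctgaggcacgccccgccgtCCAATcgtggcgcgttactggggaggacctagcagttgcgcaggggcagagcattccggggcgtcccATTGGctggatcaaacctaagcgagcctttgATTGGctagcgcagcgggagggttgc
Aurka: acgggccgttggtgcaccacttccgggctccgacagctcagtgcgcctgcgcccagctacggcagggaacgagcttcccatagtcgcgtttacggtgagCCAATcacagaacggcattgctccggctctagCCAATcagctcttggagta
Rrm1: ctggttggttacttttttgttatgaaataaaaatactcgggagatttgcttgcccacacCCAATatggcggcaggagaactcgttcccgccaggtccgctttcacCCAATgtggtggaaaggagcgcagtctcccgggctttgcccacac
Tyms: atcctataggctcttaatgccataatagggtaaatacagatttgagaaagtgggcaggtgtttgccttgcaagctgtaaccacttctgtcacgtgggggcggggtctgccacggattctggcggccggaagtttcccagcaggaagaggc
Mcm6: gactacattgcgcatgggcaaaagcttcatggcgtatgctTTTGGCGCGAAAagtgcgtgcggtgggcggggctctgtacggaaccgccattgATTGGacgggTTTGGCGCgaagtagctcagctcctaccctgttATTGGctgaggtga

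The *Cdk1* window held an E2F match, a CHR and 2 CCAAT boxes, and was the only mitotic promoter with an E2F match among the 17. *Ccnb1* had 1 CCAAT box in its window, *Aurka* 2 and *Ube2c* 3, and the CHR match of *Ube2c* lay outside the stretch shown. *Rrm1* had 2 CCAAT boxes and no E2F match, and the *Tyms* window held no match to any of the motifs.

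Total counts were between 21735708 and 29338370 per library, and the members' counts were between 131 (*Ccne2*) and 12604 (*Rrm1*), so every member was measured in every library. Values are CPM (counts scaled to library size with TMM normalization factors), given in the order of replicates 1 to 4. Keratinocyte markers, all 12 measured, summed to between 12100 and 25620 CPM per library, against 24.3 to 61.2 CPM for 7 fibroblast markers, and 2 of the 12 were called lower and 0 higher in MKα3+ cells in vehicle, 3 lower and 1 higher in LN332. The 7 immune markers measured summed to 79.0 to 144 CPM in MKα3− libraries, 157 to 441 CPM in MKα3+ vehicle and 124 to 447 CPM in MKα3+ LN332 libraries. In vehicle 4 of the 7 were called higher in MKα3+ cells (*Lyz2*, *Cd74*, *Csf1r* and *Itgam*), and in LN332 2 of the 7 (*Cd74* and *Csf1r*). The part of these markers in the results below was not tested. Over all genes, 10.9% were called higher and 7.56% lower in MKα3+ cells in vehicle, and 11.7% and 8.92% in LN332. Mouse *Itga3* was counted at means of 259, 268, 277 and 303 CPM in the MKα3− vehicle, MKα3− LN332, MKα3+ vehicle and MKα3+ LN332 groups, so its count does not tell the lines apart.

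Per kilobase of exon sequence, the members' mean levels over the 16 libraries ranged from 2.68 CPM per kb for *Ccne2* (cyclin E2) to 113 for *Rrm2*, the small subunit of ribonucleotide reductase. *Pcna*, the sliding clamp of DNA polymerase, stood next at 112 CPM per kb. The highest mitotic members on this scale were *Ccnb2* (cyclin B2) at 78.6 and *Ube2c*, the ubiquitin-conjugating enzyme of the anaphase-promoting complex, at 67.3 CPM per kb, and the lowest was *Cenpf*, which encodes a kinetochore protein. The other cyclin E gene, *Ccne1*, stood at 39.9 CPM per kb.

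The spread between replicates was wider in the mitotic than in the S-phase set, as a description. Around the group means, the SD of log2 CPM had a median of 0.134 over the S-phase genes and 0.208 over the mitotic genes, against 0.214 over all genes. *Prim1* (primase) was the steadiest member at 0.0787, and *Ube2c* and *Mki67*, the Ki-67 proliferation antigen, varied most among the mitotic genes at 0.319 and 0.282. Across the 16 libraries with group means removed, the mitotic genes moved together, with a median Pearson r of 0.585 over 231 pairs, while S-phase pairs had a median r of 0.235 and mixed pairs -0.0561. These are descriptions, since the pairs share libraries and depth. The correlations were not computed for all genes, nor without the replicate-1 libraries, which stood apart in the mitotic set as given below. *Hmmr* (median r with the other mitotic genes 0.75), *Tpx2* (0.746) and *Plk1* (0.713) followed the mitotic set most closely, and *Birc5*, which encodes survivin, least (0.0158).

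The replicate-1 libraries stood apart in the mitotic set. The mean log2 level of the set, each gene centred on its mean over 16 libraries, was 0.355, 0.0013, 0.178 and 0.0651 in MKα3− vehicle, 0.270, -0.0409, 0.117 and -0.134 in MKα3− LN332, -0.170, -0.0114, 0.0989 and 0.0768 in MKα3+ vehicle, and -0.381, -0.261, -0.0430 and -0.121 in MKα3+ LN332. Replicate 1 was thus the highest library of both MKα3− groups and the lowest of both MKα3+ groups, and 17 of 22 mitotic genes were highest in replicate 1 of MKα3− vehicle while 16 were lowest in replicate 1 of MKα3+ vehicle. In MKα3− LN332, replicate 4, the library with the fewest counts, was lowest for 16 of 22 mitotic genes. For the S-phase set the 16 libraries stayed between -0.0996 and 0.135. Replicate 1 also had the lowest keratinocyte marker sum of each group (12100 to 14090 CPM, against 15240 to 25620 in the other 12 libraries), and in LN332 the highest share of counts on *Rn45s*, the 45S precursor of ribosomal RNA (1.42% in MKα3− and 1.06% in MKα3+ cells). The part of these in the results was not tested. The counts, medians and called members between the lines are therefore also given without the replicate-1 libraries.

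**Figure D1:**
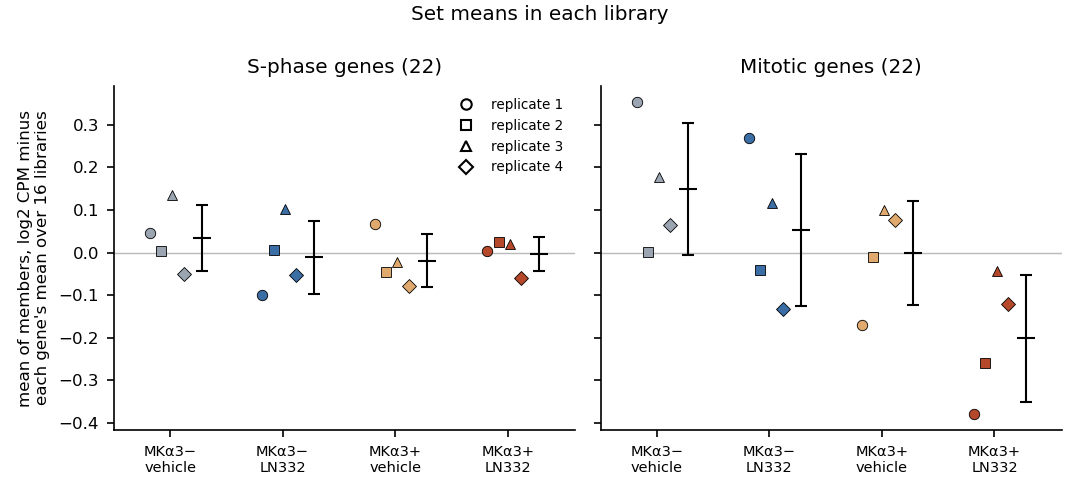
Mean of the 22 S-phase and the 22 mitotic genes in each library (y axis, log2 CPM minus each gene's mean over the 16 libraries) by group (x axis), with the group mean ± SD (n = 4) beside the points and symbols for replicate number. Replicate 1 lies at the top of both MKα3− groups (0.355 and 0.270) and at the bottom of both MKα3+ groups (-0.170 and -0.381) for the mitotic set.

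MKα3+ and MKα3− cells were compared to ask which members differ with α3, first in the S-phase set. A gene was called when its adjusted p was under 0.05 and its log2 fold change exceeded 0.5 in size, and 10.9% of all genes were called higher and 7.56% lower in MKα3+ cells in vehicle. Of the 22 S-phase genes, 0 were called in vehicle by limma-voom, edgeR or DESeq2, with 12 at an unadjusted limma p under 0.05 (5648 of all 14474 genes). Without the fold minimum 3 were higher and 5 lower at adjusted p below 0.05, against 15.3% and 13.1% of all genes. Their median log2 fold change was -0.10 (all genes 0.0056), with 14 of 22 below 0 (49.4% of all genes). In 3 members all MKα3+ libraries lay above the MKα3− ones and in 6 below, against 17.2% and 15.7% of all genes. Without the replicate-1 libraries the count was 0 again and the median -0.09, with 14 of 22 below 0.

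In LN332 2 S-phase genes rose and 1 fell in MKα3+ against MKα3− cells, where 11.7% of all genes were called higher and 8.92% lower. Without the fold minimum 4 were higher and 6 lower (16.8% and 15.4% of all genes). The median was 0.04 (all genes 0.0062), with 9 of 22 below 0 (49.3% of all genes). Its sign was not stable: it was -0.023 with sample quality weights (13 below 0), -0.0094 without MKα3− LN332 replicate 1 (12 below 0) and -0.012 without all replicate-1 libraries (12 below 0), where the 3 calls held. The libraries of the lines did not overlap for 3 higher and 6 lower members, against 13.6% and 12.9% of all genes. The called members were *Rrm1* and *Ccne2*, which rose, and *Tyms*, which fell. Subtracting the median log2 fold change of the other genes within 10 Mb took all 3 under the fold minimum, to 0.43, 0.41 and -0.35, and brought *Gins1*, a gene of the GINS complex named here for that reason, past it (-0.58). This subtraction changed the fold changes only, and each adjusted p stayed that of the unsubtracted value, so no member was tested again.

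*Rrm1* (chr7:102441695-102469771, plus strand) encodes the large subunit of ribonucleotide reductase, which makes deoxynucleotides. In vehicle, *Rrm1* was at 278, 292, 277 and 294 CPM in MKα3− cells and at 338, 359, 368 and 366 CPM in MKα3+ cells. With LN332, *Rrm1* stood at 245, 327, 312 and 307 CPM in MKα3− cells and at 347, 434, 463 and 472 CPM in MKα3+ cells. The lines did not overlap in either treatment, and replicate 1 was the lowest of both LN332 groups. *Rrm1* rose by 0.52 ± 0.11 (log2 fold change ± SE, adjusted p = 0.0011) in LN332, or 43.9%, and in vehicle its difference was 0.33 ± 0.11 (log2 fold change ± SE, adjusted p = 0.0281), under the fold minimum. The call in LN332 was lost without MKα3− replicate 1, MKα3+ replicate 3 or MKα3+ replicate 4, with log2 fold changes of 0.43, 0.48 and 0.47, and held without all replicate-1 libraries (0.53).

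*Ccne2* (chr4:11191351-11204779, plus strand) encodes cyclin E2. In vehicle, *Ccne2* was at 6.67, 7.53, 9.67 and 8.22 CPM in MKα3− cells and at 13.0, 9.3, 11.8 and 10.3 CPM in MKα3+ cells. With LN332, *Ccne2* stood at 5.08, 6.04, 10.2 and 7.33 CPM in MKα3− cells and at 10.0, 9.46, 13.7 and 11.7 CPM in MKα3+ cells. Its groups overlapped in both treatments. *Ccne2* rose by 0.68 ± 0.20 (log2 fold change ± SE, adjusted p = 0.0135) in LN332, with 0.47 ± 0.19 (log2 fold change ± SE, adjusted p = 0.0673) in vehicle, the largest S-phase difference there. It was the lowest member by count, its exons share 609 bases with the opposite strand gene *Ints8*, and its call was lost without MKα3− LN332 replicate 1 (0.53) or MKα3+ LN332 replicate 3 (0.57), and held without all replicate-1 libraries (0.58, adjusted p = 0.0335).

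*Tyms* (chr5:30058202-30073617, minus strand) encodes thymidylate synthase, which makes the thymidine nucleotide for DNA. In vehicle, *Tyms* was at 54.4, 47.8, 48.9 and 47.0 CPM in MKα3− cells and at 39.6, 36.1, 35.7 and 34.4 CPM in MKα3+ cells. With LN332, *Tyms* stood at 61.6, 50.3, 46.1 and 52.7 CPM in MKα3− cells and at 36.5, 35.4, 33.6 and 35.0 CPM in MKα3+ cells. All MKα3+ libraries were below all MKα3− libraries in both treatments. *Tyms* fell by 0.58 ± 0.09 on the log2 scale in LN332 (± SE, adjusted p = 0.000125), and in vehicle its difference was -0.44 ± 0.09 (log2 fold change ± SE, adjusted p = 0.00139), under the fold minimum. It has a named pseudogene, *Tyms-ps*, with which reads could be shared, and its log2 fold change in LN332 was -0.50 without MKα3− replicate 1, just under the fold minimum, and -0.51 without all replicate-1 libraries.

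The licensing gene *Cdc6*, whose product loads the MCM helicase, was not called. In vehicle, *Cdc6* was at 38.5, 38.9, 43.3 and 37.9 CPM in MKα3− cells and at 52.3, 40.1, 50.0 and 42.7 CPM in MKα3+ cells. With LN332, *Cdc6* stood at 33.7, 34.4, 37.4 and 32.0 CPM in MKα3− cells and at 49.2, 43.3, 50.2 and 47.1 CPM in MKα3+ cells. The lines overlapped in vehicle and separated in LN332, where *Cdc6* differed by 0.46 ± 0.10 (log2 fold change ± SE, adjusted p = 0.00133), under the fold minimum, against 0.22 ± 0.09 (log2 fold change ± SE, adjusted p = 0.0924) in vehicle.

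*Mcm2* and *Mcm7* encode helicase subunits. In vehicle, *Mcm2* was at 249, 229.5, 289 and 235 CPM in MKα3− cells and at 235, 248, 242 and 232 CPM in MKα3+ cells. With LN332, *Mcm2* stood at 189, 209, 274 and 208 CPM in MKα3− cells and at 238, 262, 249 and 229.8 CPM in MKα3+ cells. The lines overlapped in both treatments. The *Mcm2* difference was -0.06 ± 0.11 (log2 fold change ± SE, adjusted p = 0.71) in vehicle and 0.17 ± 0.11 (log2 fold change ± SE, adjusted p = 0.243) in LN332. In vehicle, *Mcm7* was at 147, 142, 144 and 122.96 CPM in MKα3− cells and at 134, 130.4, 128 and 120.5 CPM in MKα3+ cells. With LN332, *Mcm7* stood at 119.6, 127, 116 and 107 CPM in MKα3− cells and at 128, 129, 116 and 113 CPM in MKα3+ cells. These groups also overlapped, and *Mcm7* exons overlap those of opposite strand genes. The *Mcm7* difference was -0.11 ± 0.08 in vehicle and 0.05 ± 0.08 in LN332 (log2 fold change ± SE, adjusted p = 0.328 and 0.678). Within the helicase, *Mcm3* and *Mcm4* lay lower in MKα3+ cells, at -0.38 ± 0.09 and -0.27 ± 0.10 in vehicle (adjusted p = 0.00381 and 0.0401), neither past the fold minimum. In LN332 they were at -0.26 ± 0.09 and -0.29 ± 0.09 (adjusted p = 0.0354 and 0.0267), also under it. After subtracting the median of the other genes within 10 Mb, *Mcm3* and *Mcm4* were at -0.19 and -0.11 in vehicle and at -0.04 and -0.12 in LN332.

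*Pcna* levels were higher in all MKα3+ than in all MKα3− libraries in both treatments, the nearest libraries of the lines being almost level in each. In vehicle, *Pcna* was at 236, 236, 258 and 224 CPM in MKα3− cells and at 321, 258, 287 and 261 CPM in MKα3+ cells. With LN332, *Pcna* stood at 269, 265, 269.6 and 269.7 CPM in MKα3− cells and at 307, 280.1, 297 and 271 CPM in MKα3+ cells. Its difference was 0.24 ± 0.08 (log2 fold change ± SE, adjusted p = 0.0416) in vehicle and 0.10 ± 0.08 (log2 fold change ± SE, adjusted p = 0.371) in LN332, and *Pcna* has named pseudogenes that could take part of its reads. After subtracting the median of the other genes within 10 Mb, the *Pcna* values were -0.02 in vehicle and -0.11 in LN332. *Rrm2* encodes the partner of *Rrm1* in ribonucleotide reductase. In vehicle, *Rrm2* was at 309, 283, 362 and 286 CPM in MKα3− cells and at 258, 285, 331 and 299 CPM in MKα3+ cells. With LN332, *Rrm2* stood at 282, 330.3, 385 and 325 CPM in MKα3− cells and at 271, 313, 357 and 316 CPM in MKα3+ cells. Its groups overlapped, at -0.08 ± 0.12 (log2 fold change ± SE, adjusted p = 0.657) in vehicle and -0.07 ± 0.12 (log2 fold change ± SE, adjusted p = 0.676) in LN332.

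*E2f1*, the transcription factor upstream of many S-phase genes, and *Ccne1* (cyclin E1) are the regulators of S-phase entry besides *Ccne2*. In vehicle, *E2f1* was at 124, 126, 138 and 129 CPM in MKα3− cells and at 175, 158, 155 and 173 CPM in MKα3+ cells. With LN332, *E2f1* stood at 111, 124, 140.2 and 185 CPM in MKα3− cells and at 173, 187, 176 and 164 CPM in MKα3+ cells. The lines separated in vehicle and overlapped in LN332 through MKα3− replicate 4. *E2f1* differed by 0.35 ± 0.12 (log2 fold change ± SE, adjusted p = 0.0338) in vehicle and 0.34 ± 0.12 (log2 fold change ± SE, adjusted p = 0.0348) in LN332, under the fold minimum. Without the replicate-1 libraries the *E2f1* values were 0.30 and 0.25 (limma adjusted p = 0.0787 and 0.129). After subtracting the median of the other genes within 10 Mb they were 0.21 and 0.18. In vehicle, *Ccne1* was at 94.0, 106, 97.4 and 102 CPM in MKα3− cells and at 107, 101, 107 and 105 CPM in MKα3+ cells. With LN332, *Ccne1* stood at 94.1, 122, 104 and 112 CPM in MKα3− cells and at 114, 116, 115 and 104 CPM in MKα3+ cells. *Ccne1* overlapped in both, with 0.08 ± 0.08 in vehicle and 0.06 ± 0.08 in LN332 (log2 fold change ± SE, adjusted p = 0.528 and 0.607).

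The remaining S-phase members were not called in either treatment, and are given as log2 fold changes ± SE in vehicle and in LN332. *Uhrf1* was at -0.07 ± 0.12 and 0.05 ± 0.12. The helicase subunit genes *Mcm5* and *Mcm6* were at -0.21 ± 0.08 and 0.04 ± 0.08, and at -0.14 ± 0.09 and 0.0097 ± 0.09. *Cdt1*, the licensing partner of *Cdc6*, was at 0.03 ± 0.14 and 0.14 ± 0.14. Of the helicase activators, *Gins1* was at -0.19 ± 0.11 and -0.40 ± 0.11 (adjusted p = 0.222 and 0.0109), *Gins2* at -0.21 ± 0.14 and -0.23 ± 0.14 and *Cdc45* at -0.22 ± 0.09 and -0.20 ± 0.09. Of the synthesis genes, *Pola1* (DNA polymerase α) was at 0.17 ± 0.11 and 0.19 ± 0.12, *Prim1* at -0.30 ± 0.07 and -0.21 ± 0.07 and *Fen1*, the flap nuclease of Okazaki fragments, at -0.35 ± 0.12 and -0.37 ± 0.12 (adjusted p for *Prim1* = 0.00553 and 0.037, and for *Fen1* = 0.0338 and 0.0228). With the median of the other genes within 10 Mb subtracted, *Pola1* was at 0.10 and 0.06, *Prim1* at 0.03 and 0.08 and *Fen1* at -0.16 and -0.19.

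**Figure D2:**
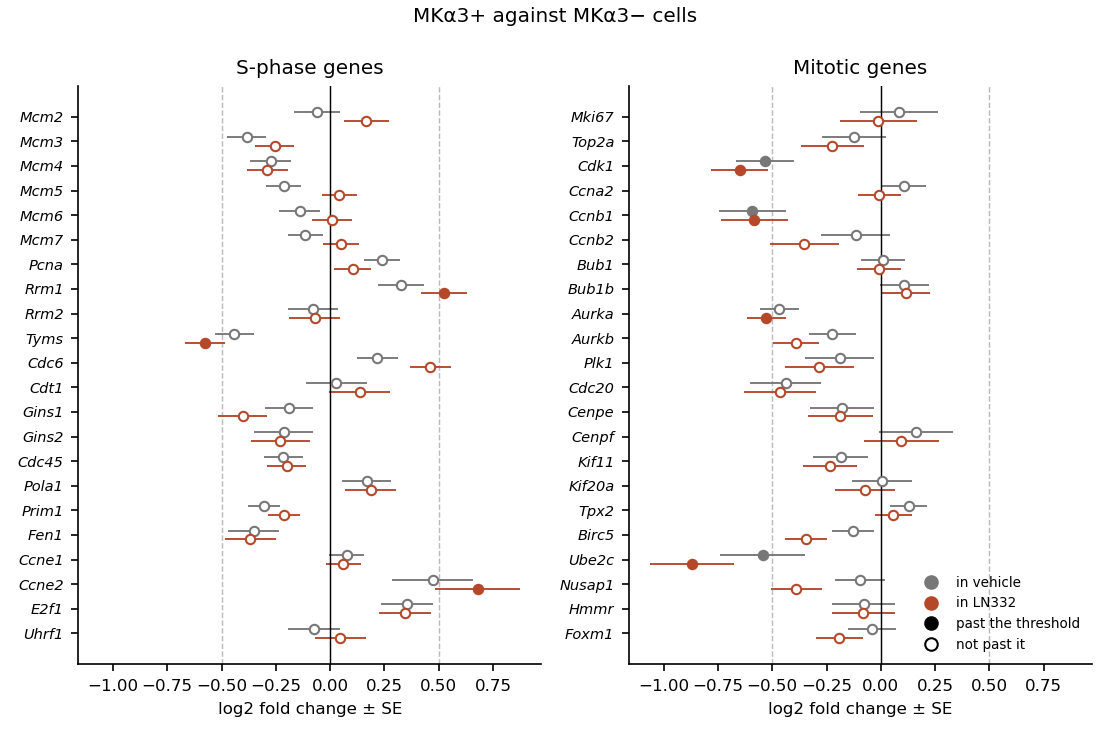
Log2 fold change ± SE (x axis) of MKα3+ against MKα3− cells for each of the 44 genes (y axis), in vehicle (grey) and LN332 (red). Filled points passed adjusted p below 0.05 and the fold minimum of 0.5 (dashed lines); the called mitotic genes lie to the left, and the S-phase genes spread to both sides, from *Tyms* at -0.58 to *Ccne2* at 0.68 in LN332.

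Among the mitotic genes, the called differences between the lines were all lower in MKα3+ cells. In vehicle 3 of 22 fell and 0 rose, beside 7.56% and 10.9% of all genes, and 4 were lower at adjusted p alone (13.1% of all genes). The same counts of 3 lower and 0 higher were given by edgeR and DESeq2. The median log2 fold change was -0.12, with 15 of 22 below 0, and the lines did not overlap for 4 lower and 0 higher members (15.7% and 17.2% of all genes), so the lower count was near the share of all genes. In LN332 4 of 22 fell and 0 rose (8.92% and 11.7% of all genes), 8 were lower at adjusted p alone (15.4% of all genes), the median was -0.23 with 19 of 22 below 0, and 7 lower and 0 higher members did not overlap (12.9% and 13.6% of all genes). Without the 4 replicate-1 libraries the calls were 0 in vehicle and 2 in LN332 (*Cdk1* and *Ube2c*), and the medians -0.0061 and -0.10, so the counts and medians of the set depend on those libraries.

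*Cdk1* (chr10:69335146-69352938, minus strand) encodes the kinase that drives entry into mitosis. In vehicle, *Cdk1* was at 255, 170.1, 196 and 165 CPM in MKα3− cells and at 121, 132, 144 and 138 CPM in MKα3+ cells. With LN332, *Cdk1* stood at 267, 188, 197 and 181 CPM in MKα3− cells and at 126, 127, 140.1 and 131 CPM in MKα3+ cells. All 8 MKα3+ libraries lay below all 8 MKα3− libraries, with replicate 1 well above the other MKα3− libraries. *Cdk1* fell by 0.53 ± 0.13 in vehicle and 0.65 ± 0.13 in LN332 (log2 ± SE, adjusted p = 0.00594 and 0.00118). Without all replicate-1 libraries the vehicle difference was -0.36 (adjusted p = 0.00558), and the call in vehicle was also lost without MKα3− replicate 1 (-0.40) or MKα3+ replicate 1 (-0.49). The other genes within 10 Mb of *Cdk1* had a median log2 fold change of -0.24 in each treatment, and subtracting it took *Cdk1* under the fold minimum in both, to -0.29 and -0.41.

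*Ccnb1* (chr13:100778650-100786570, minus strand) encodes cyclin B1, the partner of Cdk1. In vehicle, *Ccnb1* was at 97.6, 64.6, 71.0 and 69.5 CPM in MKα3− cells and at 44.2, 49.4, 52.7 and 52.3 CPM in MKα3+ cells. With LN332, *Ccnb1* stood at 94.2, 59.5, 65.1 and 53.6 CPM in MKα3− cells and at 43.4, 41.0, 50.9 and 43.3 CPM in MKα3+ cells. The lines did not overlap in either treatment. *Ccnb1* fell by 0.59 ± 0.15 in vehicle and 0.58 ± 0.16 in LN332 (log2 ± SE, adjusted p = 0.00767 and 0.00827). Without the replicate-1 libraries the values were -0.41 and -0.40 (adjusted p = 0.00559 and 0.00578), under the fold minimum, and leaving out MKα3− replicate 1 alone ended the calls too (-0.46 and -0.42). After subtracting the regional median both values stayed past the fold minimum (-0.60 and -0.59), without a new test. A pseudogene, *Ccnb1-ps*, is named in the annotation.

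*Ube2c* (chr2:164769898-164778822, plus strand) hands ubiquitin to the substrates of the anaphase-promoting complex. In vehicle, *Ube2c* was at 310.1, 160.0, 230.2 and 177 CPM in MKα3− cells and at 137, 133, 169 and 146 CPM in MKα3+ cells. With LN332, *Ube2c* stood at 308, 159, 204 and 199 CPM in MKα3− cells and at 119, 100.02, 139 and 109 CPM in MKα3+ cells. The lines overlapped in vehicle and separated in LN332, where *Ube2c* had the largest difference of the 44 genes. It fell by 0.54 ± 0.20 in vehicle and 0.87 ± 0.19 in LN332 (log2 ± SE, adjusted p = 0.047 and 0.00247). The vehicle call held in 10 of 18 alternatives, with log2 fold changes of -0.68 to -0.33 and adjusted p of 0.00596 to 0.17, and the LN332 call in all 18. These 18, here and below, left out single libraries of the compared groups only. The losses in vehicle included leaving out MKα3− replicate 1 (-0.36) or 3 (-0.51), MKα3+ replicate 1 (-0.51), 2 (-0.50) or 4 (-0.55), and all replicate-1 libraries (-0.33). *Ube2c* had the highest adjusted p of the 3 mitotic members called in vehicle. That count of 3 was 2 without MKα3− LN332 replicate 3 or 4, or MKα3+ LN332 replicate 1, 2 or 4, which share the fit. Subtracting the regional median, without a new test, gave -0.45 in vehicle, under the fold minimum, and -0.84 in LN332. Its exons share 592 bases with the opposite strand gene *Tnnc2*.

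*Aurka* (chr2:172356190-172370535, minus strand), the Aurora A kinase of the spindle poles, was the other called member in LN332, and is named here after its values were seen. In vehicle, *Aurka* was at 120.3, 98.9, 111 and 104 CPM in MKα3− cells and at 74.6, 73.1, 84.3 and 82.2 CPM in MKα3+ cells. With LN332, *Aurka* stood at 103, 97.2, 106 and 114 CPM in MKα3− cells and at 67.6, 67.3, 83.3 and 74.4 CPM in MKα3+ cells. The lines did not overlap in either treatment, and replicate 1 did not stand apart. *Aurka* fell by 0.53 ± 0.09 in LN332 (log2 ± SE, adjusted p = 0.000274), and in vehicle its difference was -0.47 ± 0.09 (log2 fold change ± SE, adjusted p = 0.000883), just under the fold minimum. In LN332 it was -0.49 without MKα3− replicate 4 or MKα3+ replicate 1, and -0.50 without MKα3+ replicate 2 or all replicate-1 libraries, just under the fold minimum, and it was -0.44 with sample quality weights and -0.38 after subtracting the regional median.

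*Aurkb*, the Aurora B kinase of the chromosomal passenger complex, differed in the same direction without a call. In vehicle, *Aurkb* was at 157, 147, 167 and 147 CPM in MKα3− cells and at 113, 132, 142 and 144 CPM in MKα3+ cells. With LN332, *Aurkb* stood at 149, 137, 163 and 122 CPM in MKα3− cells and at 92.3, 107, 121 and 114 CPM in MKα3+ cells. The lines did not overlap in either treatment, with -0.22 ± 0.11 (log2 fold change ± SE, adjusted p = 0.138) in vehicle and -0.39 ± 0.11 (log2 fold change ± SE, adjusted p = 0.0101) in LN332. *Plk1*, the Polo-like kinase, overlapped between the lines. In vehicle, *Plk1* was at 151, 93.4, 126 and 102 CPM in MKα3− cells and at 88.9, 96.7, 116 and 107 CPM in MKα3+ cells. With LN332, *Plk1* stood at 146, 92.1, 107 and 91.7 CPM in MKα3− cells and at 83.4, 78.6, 101 and 91.2 CPM in MKα3+ cells. Its differences were -0.19 ± 0.16 (log2 fold change ± SE, adjusted p = 0.404) and -0.28 ± 0.16 (log2 fold change ± SE, adjusted p = 0.185).

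The proliferation antigen *Mki67*, *Top2a* (topoisomerase IIα, which untangles sister chromatids) and *Foxm1* (the transcription factor of G2/M genes) overlapped between the lines. In vehicle, *Mki67* was at 186, 196, 231 and 219 CPM in MKα3− cells and at 176, 216, 239.8 and 255 CPM in MKα3+ cells. With LN332, *Mki67* stood at 212, 194, 224 and 135 CPM in MKα3− cells and at 130.0, 187, 213 and 230.4 CPM in MKα3+ cells. *Mki67* differed by 0.09 ± 0.18 (log2 fold change ± SE, adjusted p = 0.766) in vehicle and -0.01 ± 0.18 (log2 fold change ± SE, adjusted p = 0.968) in LN332, and MKα3− LN332 replicate 4 and MKα3+ LN332 replicate 1 were its lowest libraries. In vehicle, *Top2a* was at 409, 388, 418 and 366 CPM in MKα3− cells and at 298, 372, 392 and 395 CPM in MKα3+ cells. With LN332, *Top2a* stood at 423, 395, 426 and 272 CPM in MKα3− cells and at 250.1, 332, 347 and 355 CPM in MKα3+ cells. *Top2a* differed by -0.12 ± 0.15 (log2 fold change ± SE, adjusted p = 0.574) and -0.22 ± 0.14 (log2 fold change ± SE, adjusted p = 0.257), with those same libraries lowest. In vehicle, *Foxm1* was at 231, 177, 213 and 194 CPM in MKα3− cells and at 162, 199, 215 and 218 CPM in MKα3+ cells. With LN332, *Foxm1* stood at 209.8, 171, 203 and 199.7 CPM in MKα3− cells and at 159.6, 161, 182 and 184 CPM in MKα3+ cells. *Foxm1* differed by -0.04 ± 0.11 (log2 fold change ± SE, adjusted p = 0.811) and -0.19 ± 0.11 (log2 fold change ± SE, adjusted p = 0.194).

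The other mitotic members were not called between the lines either, and are given in the same way. *Cdc20* was at -0.44 ± 0.16 and -0.47 ± 0.17 (adjusted p = 0.0553 and 0.0405) and *Nusap1*, a spindle microtubule protein gene, at -0.10 ± 0.12 and -0.39 ± 0.12 (adjusted p = 0.573 and 0.0179). *Ccnb2* was at -0.12 ± 0.16 and -0.35 ± 0.16, and *Cenpf* at 0.16 ± 0.17 and 0.09 ± 0.17. *Ccna2* (cyclin A2) was at 0.11 ± 0.10 and -0.0062 ± 0.10, and the checkpoint kinase genes *Bub1* and *Bub1b* were at 0.01 ± 0.10 and -0.0092 ± 0.10, and at 0.11 ± 0.11 and 0.11 ± 0.11. The motor genes *Kif11*, *Kif20a* and *Cenpe* were at -0.18 ± 0.13 and -0.23 ± 0.13, at 0.0043 ± 0.14 and -0.07 ± 0.14, and at -0.18 ± 0.15 and -0.19 ± 0.15. The spindle genes *Tpx2* and *Hmmr* were at 0.13 ± 0.09 and 0.06 ± 0.08, and at -0.08 ± 0.14 and -0.08 ± 0.15, and *Birc5*, a passenger complex subunit, was at -0.13 ± 0.10 and -0.35 ± 0.10 (adjusted p = 0.354 and 0.0117).

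**Figure D3:**
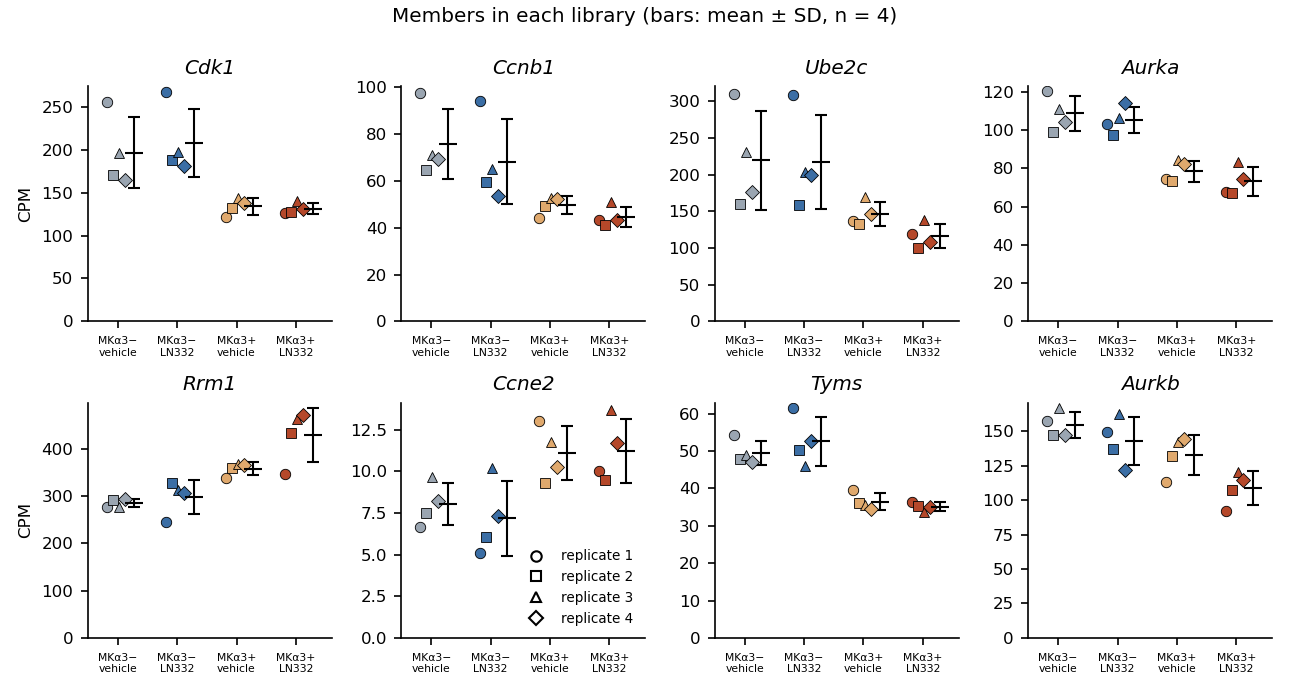
CPM in each library (y axis, from 0) by group (x axis) for the 7 members called between the lines and for *Aurkb*, with the group mean ± SD (n = 4) beside the points. *Cdk1*, *Ccnb1* and *Aurka* lie lower in all 8 MKα3+ libraries, and replicate 1 is far above the other MKα3− libraries for *Cdk1*, *Ccnb1* and *Ube2c*.

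LN332 was compared with vehicle within each line to ask which members respond to the ligand and whether the response needs α3. In MKα3+ cells, where 0.173% of all genes were called higher and 0.0138% lower, 0 of the 22 mitotic genes were called by limma-voom, edgeR or DESeq2, with 4 at an unadjusted limma p under 0.05 (1388 of all 14474 genes). The shares called over all genes were 25 higher and 2 lower calls, which became 241 and 213 with sample quality weights, and 0 and 0 when any 1 of 4 MKα3+ libraries was left out (replicates 2 and 4 of vehicle, 3 and 4 of LN332). All 22 nonetheless lay below 0, between -0.39 and -0.02 with a median of -0.20, where 51.5% of all genes lay below 0. The set mean was lower with LN332 in each replicate number, differing by -0.21, -0.249, -0.142 and -0.198 on the log2 scale, and 17 of the 22 genes were lower in all 4. How many of all genes were lower in all 4 was not counted, so 17 of 22 has no background here. The genes are not independent, since they vary together between libraries. The *Rn45s* share was higher with LN332 in the same 4 pairs, from 0.652% to 1.06%, 0.529% to 0.748%, 0.518% to 0.520% and 0.502% to 0.550%, and in 2 of the 4 pairs of MKα3− cells, and its part in the result was not tested. With single libraries left out the median ranged from -0.28 (MKα3+ vehicle replicate 1) to -0.12 (MKα3+ LN332 replicate 1), with at least 20 of 22 below 0. Scaled by library size alone it was -0.27, where the median of all genes was -0.08.

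*Ccnb2*, cyclin B2, and *Nusap1* had the largest mitotic differences and were the 2 members without overlap, against 4.88% of all genes lower and 4.78% higher without overlap. In vehicle, *Ccnb2* was at 184, 116, 129 and 120.3 CPM in MKα3− cells and at 137, 117, 125 and 120.5 CPM in MKα3+ cells. With LN332, *Ccnb2* stood at 172, 101, 115 and 108 CPM in MKα3− cells and at 113, 90.4, 92.3 and 85.9 CPM in MKα3+ cells. Within MKα3+ cells the LN332 libraries all lay below the vehicle ones, while in MKα3− cells the groups overlapped and replicate 1 stood high. *Ccnb2* differed by -0.39 ± 0.16 (log2 fold change ± SE, adjusted p = 0.401) in MKα3+ cells and -0.16 ± 0.16 (log2 fold change ± SE, adjusted p = 0.718) in MKα3− cells, and it has a named pseudogene. In vehicle, *Nusap1* was at 73.2, 51.5, 54.6 and 56.0 CPM in MKα3− cells and at 53.6, 52.9, 56.2 and 55.3 CPM in MKα3+ cells. With LN332, *Nusap1* stood at 67.0, 50.8, 54.7 and 46.4 CPM in MKα3− cells and at 41.5, 37.5, 44.8 and 42.3 CPM in MKα3+ cells. *Nusap1* differed by -0.39 ± 0.12 (log2 fold change ± SE, adjusted p = 0.199) in MKα3+ cells, and -0.10 ± 0.12 (log2 fold change ± SE, adjusted p = 0.766) in MKα3− cells. With the replicate number as a block, which the data pair in MKα3+ cells, the adjusted p in MKα3+ cells was 0.019 for *Ccnb2* and 0.0366 for *Nusap1*, the 2 mitotic members below 0.05 (1.2% of all genes were lower at that threshold), both under the fold minimum.

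**Figure D4:**
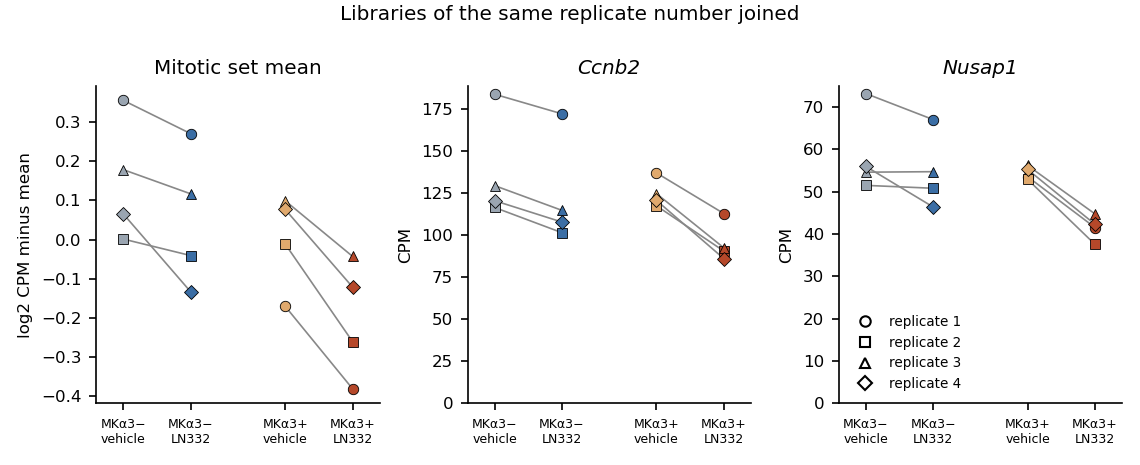
Vehicle and LN332 libraries of the same replicate number joined by lines (x axis, groups), for the mitotic set mean (y axis, log2 CPM minus each gene's mean) and for *Ccnb2* and *Nusap1* (y axis, CPM from 0). All 4 lines of the set mean slope down in each cell line, with differences of -0.249 to -0.142 in MKα3+ cells and -0.199 to -0.0422 in MKα3− cells. The numbers pair the libraries less clearly in MKα3− cells, where 5 of 8 correlated best with their own number.

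The remaining mitotic members overlapped between vehicle and LN332 in MKα3+ cells. *Cdk1* differed by -0.03 ± 0.13 (log2 fold change ± SE, adjusted p = 0.981), *Ccnb1* by -0.15 ± 0.16 (log2 fold change ± SE, adjusted p = 0.877) and *Aurka* by -0.10 ± 0.09 (log2 fold change ± SE, adjusted p = 0.834). Of the genes of mitotic exit, *Ube2c* was at -0.33 ± 0.19 (log2 fold change ± SE, adjusted p = 0.643) and *Cdc20*, the activator of the anaphase-promoting complex, at -0.29 ± 0.17 (log2 fold change ± SE, adjusted p = 0.64), none past the test. *Aurkb* was at -0.29 ± 0.11, *Plk1* at -0.21 ± 0.16, *Mki67* at -0.24 ± 0.18, *Top2a* at -0.19 ± 0.14 and *Foxm1* at -0.20 ± 0.11 (log2 fold change ± SE).

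In MKα3− cells 0.242% of all genes were called higher with LN332 and 0.0622% lower, and 0 of the 22 mitotic genes by limma-voom, edgeR or DESeq2, with 1 at an unadjusted limma p under 0.05 (2023 of all 14474 genes). The median was -0.11, with 19 of 22 below 0 (51.1% of all genes), 9 lower in all 4 replicate numbers, and 0 lower without overlap (2.66% of all genes). The share of all genes lower in all 4 was not counted in this line either. The set mean differed by -0.0849, -0.0422, -0.0617 and -0.199, the last in the replicate with the low LN332 library. The numbers paired the libraries less clearly in this line. The vehicle and LN332 libraries of replicate 4 had r of -0.022, and 5 of 8 libraries correlated best with their own number. Without MKα3− vehicle replicate 1 the median was -0.01 and 13 of 22 lay below 0, and without MKα3− LN332 replicate 4 it was -0.05 with 15 of 22 below 0. The largest differences were those of *Cenpf* and *Cdc20*.

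In vehicle, *Cenpf* was at 77.9, 62.8, 73.4 and 74.0 CPM in MKα3− cells and at 62.9, 83.4, 87.0 and 90.8 CPM in MKα3+ cells. With LN332, *Cenpf* stood at 69.5, 59.9, 66.7 and 43.99 CPM in MKα3− cells and at 43.9, 64.6, 74.5 and 76.1 CPM in MKα3+ cells. *Cenpf* overlapped between treatments in MKα3− cells, where LN332 replicate 4 was far the lowest, and differed by -0.28 ± 0.17 (log2 fold change ± SE, adjusted p = 0.501) there and -0.34 ± 0.17 (log2 fold change ± SE, adjusted p = 0.556) in MKα3+ cells. In vehicle, *Cdc20* was at 125, 76.5, 99.2 and 76.0 CPM in MKα3− cells and at 60.7, 64.7, 79.4 and 68.6 CPM in MKα3+ cells. With LN332, *Cdc20* stood at 98.1, 66.0, 86.6 and 62.0 CPM in MKα3− cells and at 54.5, 52.3, 65.7 and 51.3 CPM in MKα3+ cells. *Cdc20* was lower with LN332 in every replicate number of both lines, and differed by -0.26 ± 0.16 (log2 fold change ± SE, adjusted p = 0.507) in MKα3− cells, where the groups overlapped.

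The S-phase genes lay on both sides of 0. In MKα3+ cells 0 of its 22 genes were called by limma-voom, edgeR or DESeq2, with 1 at an unadjusted limma p under 0.05 (1388 of all 14474 genes), and the median was 0.02 with 8 below 0. In MKα3− cells 0 were called by any of the tools, with 4 at an unadjusted limma p under 0.05 (2023 of all 14474 genes), and the median was -0.05 with 13 below 0. The direction in MKα3+ cells turned under scaling by library size alone (median -0.055 with 16 below 0), and in MKα3− cells that scaling gave -0.13. *Rrm1* had the largest difference in MKα3+ cells, at 0.25 ± 0.11 (log2 fold change ± SE, adjusted p = 0.443), and its vehicle and LN332 libraries overlapped through replicate 1. *Uhrf1*, which keeps DNA methylation through replication, had the next largest, at -0.13 ± 0.12 (log2 fold change ± SE, adjusted p = 0.841).

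In vehicle, *Uhrf1* was at 143, 137, 175 and 133 CPM in MKα3− cells and at 136, 140.4, 143 and 136 CPM in MKα3+ cells. With LN332, *Uhrf1* stood at 119, 122, 159 and 98.4 CPM in MKα3− cells and at 121, 129, 131 and 126 CPM in MKα3+ cells. In MKα3+ cells its LN332 libraries all lay below the vehicle ones, the 1 S-phase member of 22 to do so (4.88% of all genes), and in MKα3− cells they overlapped. *Uhrf1* differed by -0.25 ± 0.12 (log2 fold change ± SE, adjusted p = 0.347) in MKα3− cells and *Mcm7* by -0.24 ± 0.08 (log2 fold change ± SE, adjusted p = 0.212), the furthest below 0 there. With the replicate number as a block, which pairs the libraries less clearly in this line, the limma adjusted p of *Mcm7* was 0.0331. It was the 1 S-phase member below 0.05 there, under the fold minimum, and 305 of all 14474 genes were lower at that threshold. In MKα3− cells *Cdc6* lay lower with LN332 without overlap, at -0.20 ± 0.10 (log2 fold change ± SE, adjusted p = 0.355), and *Pcna* higher without overlap, at 0.17 ± 0.08 (log2 fold change ± SE, adjusted p = 0.361), where 2.66% of all genes were lower and 2.29% higher without overlap.

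The difference between the 2 LN332 responses was tested as an interaction, and 0 of 14474 genes (0%) were called by limma-voom, edgeR or DESeq2, with 164 at an unadjusted limma p under 0.05. Among the members, 1 S-phase and 0 mitotic genes had an unadjusted limma p under 0.05, and the smallest adjusted p was 0.9999. The mitotic response was more negative in MKα3+ cells for 20 of 22 genes (median -0.09, where 50.7% of all genes lay below 0), and a difference in the response of these genes was not detectable at this spread. That median was -0.019 without MKα3− LN332 replicate 1 (14 below 0), -0.020 without MKα3+ LN332 replicate 1 (13 below 0), -0.050 without MKα3− vehicle replicate 2 or MKα3− LN332 replicate 3, -0.051 without MKα3+ vehicle replicate 3, -0.16 without MKα3+ vehicle replicate 1 (22 below 0), and -0.09 without all replicate-1 libraries (16 below 0). For *Ube2c*, the largest, the interaction was -0.32 ± 0.28, and for *Nusap1* -0.29 ± 0.17 (log2 ± SE).

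**Figure D5:**
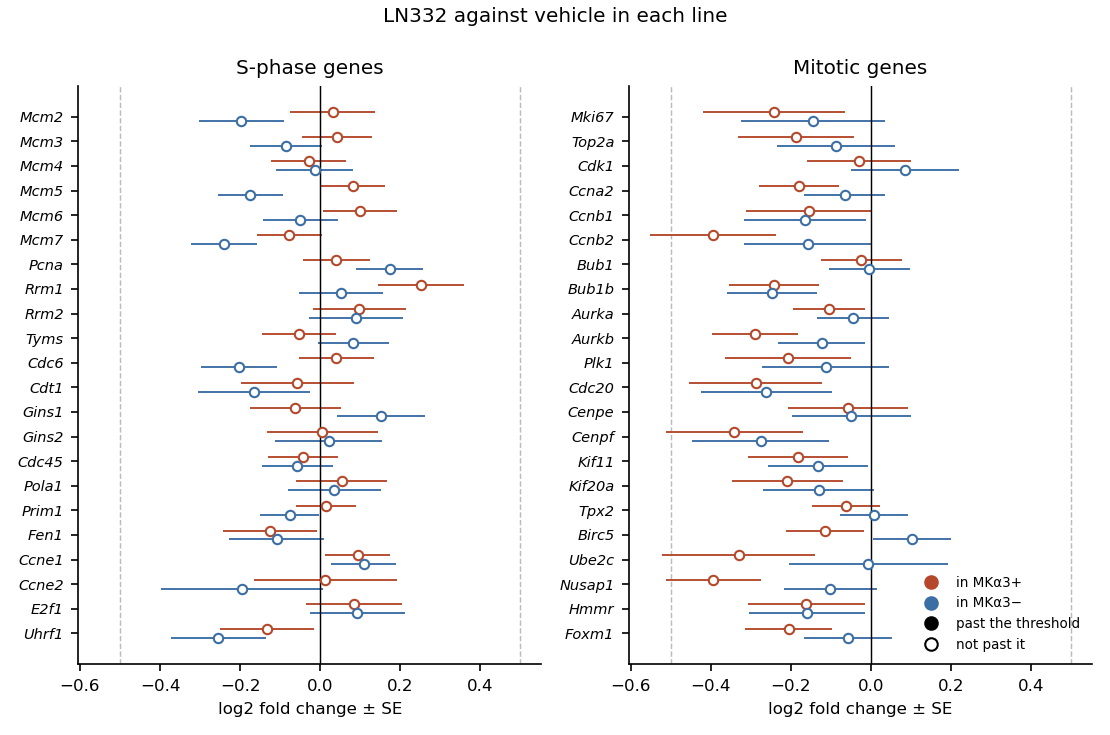
Log2 fold change ± SE (x axis) of LN332 against vehicle for each of the 44 genes (y axis), in MKα3+ (red) and MKα3− cells (blue). No point passed the threshold (all are open); all 22 mitotic genes lie left of 0 in MKα3+ cells, and the S-phase genes lie on both sides.

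Genes of the same pathways outside the 44 were read from lists chosen with earlier results known. Over all genes, 10.9% were called higher and 7.56% lower in MKα3+ cells in vehicle, and 11.7% and 8.92% in LN332. Of 44 other replication genes, 1 rose and 1 fell in MKα3+ cells in vehicle (median -0.10) and 1 rose and 1 fell in LN332 (median -0.05). These were *Orc3*, an origin recognition subunit (0.51 ± 0.08, adjusted p = 9.18e-05), and *Timeless*, of the replication fork protection complex (-0.56 ± 0.11, adjusted p = 7e-04), in vehicle (log2 fold change ± SE), and *Mcm8* (0.50 ± 0.11, adjusted p = 0.0023) and *Rpa3*, of the single-stranded DNA binding complex (-0.58 ± 0.15, adjusted p = 0.00642), in LN332. The *Mcm8* call held in 6 of 18 alternatives, with log2 fold changes of 0.37 to 0.57, and without the replicate-1 libraries 1 rose and 1 fell in vehicle (median -0.07) and 0 rose and 2 fell in LN332 (median -0.10). With LN332, 0 were called in either line, with 2 in MKα3+ and 12 in MKα3− cells at an unadjusted limma p under 0.05. Of all 14474 genes, 1388 in MKα3+ and 2023 in MKα3− cells had such a p.

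Of 54 other mitosis genes, 1 rose and 2 fell in MKα3+ cells in vehicle (median -0.12, 38 below 0), and 1 rose and 3 fell in LN332 (median -0.16, 45 below 0), where 10.9% and 7.56% of all genes were called higher and lower in vehicle and 11.7% and 8.92% in LN332. These medians too moved with replicate 1: the mean of the list differed between the lines by -0.358, 0.00804, -0.0276 and 0.0443 in vehicle and by -0.474, -0.13, -0.0874 and 0.124 in LN332. Without the replicate-1 libraries 2 rose and 0 fell in vehicle (median -0.03, 31 below 0), and 3 rose and 2 fell in LN332 (median -0.06, 33 below 0). *Cenpa*, the centromeric histone, fell from means of 70.5 to 45.9 CPM in vehicle (-0.59 ± 0.14, adjusted p = 0.0042) and from 67.4 to 39.1 CPM in LN332 (-0.77 ± 0.14, adjusted p = 0.000501). The vehicle call of *Cenpa* was lost without MKα3− replicate 1 or all replicate-1 libraries, and its LN332 call held in all 18 alternatives. *Kif18b*, a mitotic kinesin, fell in vehicle (-0.50 ± 0.17, adjusted p = 0.0327), a call that held in 9 of 18, and *Cenpn*, which binds CENP-A chromatin, fell in LN332 (-0.66 ± 0.10, adjusted p = 8.07e-05). *Ckap2*, a microtubule-associated protein, went the other way, with means of 44.4 and 113 CPM in vehicle (1.37 ± 0.18, adjusted p = 1.53e-05) and 1.36 ± 0.18 (adjusted p = 1.87e-05) in LN332. LN332 itself gave 0 calls in either line, with 8 in MKα3+ and 6 in MKα3− cells at an unadjusted limma p under 0.05 (1388 and 2023 of all 14474 genes). In MKα3+ cells 49 of the 54 lay below 0 (median -0.14), and the mean of this list differed by -0.18, -0.185, -0.133 and -0.122 in the replicate numbers. Without the replicate-1 libraries LN332 gave 0 calls in this list in MKα3+ cells and 1 in MKα3− cells (*Espl1*, lower). Over all 14474 genes, that setting gave 109 higher and 54 lower calls in MKα3− cells.

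The 2 lists below stand beside 10.9% of all genes called higher and 7.56% lower in MKα3+ cells in vehicle. In LN332 these shares were 11.7% and 8.92%. Of 18 measured E2F and DREAM regulators, 1 rose and 1 fell in MKα3+ against MKα3− cells in each treatment, and without the replicate-1 libraries 1 and 1 in vehicle and 1 and 2 in LN332. *E2f6*, a repressor E2F, was higher in MKα3+ cells, from means of 26.0 to 55.4 CPM in vehicle (1.10 ± 0.10, adjusted p = 2.04e-07) and by 1.21 ± 0.10 in LN332 (adjusted p = 1.05e-07). *E2f2*, an activator, fell from 2.70 to 0.994 CPM in vehicle (-1.44 ± 0.29, adjusted p = 0.00112) and by 1.07 ± 0.31 on the log2 scale in LN332 (adjusted p = 0.0142). Of 17 p53 targets, 1 rose and 3 fell in vehicle (median -0.32), and 2 rose and 4 fell in LN332 (median -0.31). Without the replicate-1 libraries 1 rose and 2 fell in vehicle (median -0.20), and 2 rose and 3 fell in LN332 (median -0.43). *Phlda3*, an Akt inhibitor, fell by 0.75 ± 0.14 in vehicle (adjusted p = 0.000842) and *Mdm2*, the p53 ubiquitin ligase, by 0.72 ± 0.21 (adjusted p = 0.0176), a call lost without MKα3− replicate 1, MKα3− replicate 3 or all replicate-1 libraries, while *Eda2r*, a receptor of the TNF family, rose by 1.56 ± 0.18 (adjusted p = 4.92e-06). *Plk2*, a Polo-like kinase, was the 1 gene of these lists called with LN332 in MKα3+ cells, from means of 401 to 596 CPM (0.57 ± 0.11, adjusted p = 0.0472), a call that held in 8 of 18 alternatives and was lost without any 1 of the 8 MKα3+ libraries. In MKα3− cells its means were 312 CPM in vehicle and 403 CPM in LN332, without a call. With LN332, 13 of the 17 p53 targets lay above 0 in MKα3+ cells (median 0.11) and 14 in MKα3− cells (median 0.18), where 7025 and 7085 of all 14474 genes did. Without the replicate-1 libraries 1 p53 target, *Sesn2*, was called higher in MKα3− cells.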

How the data were processed

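The authors sequenced 16 RNA libraries, used Rsubread to align the reads to mm10 and featureCounts, with its built-in Entrez annotation, to assign them to genes, and deposited raw counts in 1 table of 14474 genes, in which 284 rows had no symbol. The strand setting is not given in the sources used here, so genes that overlap on opposite strands cannot be told apart. The filter in the authors' methods (over 0.5 CPM in at least 3 libraries) removed 0 genes, and no 2 replicates were alike within sampling noise.

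From the counts, TMM factors and limma-voom (R 4.3.3, limma 3.58.1, edgeR 4.0.16) gave 5 contrasts from 1 fit of the 16 libraries, with Benjamini-Hochberg adjustment over all genes. A gene was called at adjusted p under 0.05 and a log2 fold change over 0.5 in size. Log2 CPM used a prior count of 1. edgeR's quasi-likelihood test, DESeq2 1.42.0, other scalings, filters and weights, a replicate block and leaving out each library were alternatives. The script was tested on simulated data.

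The members and lists were chosen with earlier results of these data known. Values in every library were given for 16 preset members, for the 3 largest called members in each direction per set and contrast, or for the 2 largest where none was called, and other list genes were named up to the 3 largest called. Replicate numbers paired the samples for LN332 in MKα3+ cells, where same-numbered libraries deviated together in 4 of 4 pairs (r of 0.193 to 0.615). There 7 of 8 libraries correlated best with their own number. The exception was vehicle replicate 3, which was closer to LN332 replicate 4 (0.345). Over all groups r exceeded 0.1 in 16 of 24 same-numbered and 12 of 72 differently numbered pairs. This pairing comes from the data, as the labels give only the numbers.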

Additional observations from a re-analysis of the deposited data

Results flagged for a closer look

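In 2 of 104 groups of 4 libraries, 1 library lay far from the other 3 by Dixon's criterion, where chance gives about 1 in 20 groups, or 5.2. *Pcna* was at 265.0 CPM in MKα3− LN332 replicate 2, against 269.43 to 269.67 CPM in the other 3 libraries. *Ccne1* was at 103.88 CPM in MKα3+ LN332 replicate 4, against 113.86 to 115.89 CPM in the others. In both the distance is small beside the level of the gene.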

How the results depend on the processing

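No called member turned direction in the alternatives run, and edgeR, DESeq2 and DESeq2 size factors kept every count of called members. Between the lines, the mitotic count in vehicle (3) was 0 with sample quality weights, 0 without all replicate-1 libraries and 1 after subtracting the median of genes within 10 Mb, both chosen after seeing the data, and 0 to 5 with single libraries left out (0 without MKα3− vehicle replicate 1, 1 without MKα3+ vehicle replicate 1). In LN332 the mitotic count (4) was 2 with quality weights, 2 without the replicate-1 libraries, 8 with no minimum fold change and 0 with a minimum of 1, and the regional subtraction left 3, of which *Nusap1* was not among the 4. The S-phase count in LN332 (3) was 1 after the regional subtraction (*Gins1*, none of the 3), 10 with no minimum fold change, 0 with a minimum of 1, and 0 to 3 with single libraries left out (0 without MKα3− LN332 replicate 1, 1 without MKα3+ LN332 replicate 3). The S-phase count in vehicle (0) was 8 with no minimum fold change, and the mitotic count there 0 with a minimum of 1. The S-phase median in vehicle (-0.10) was -0.016 after the regional subtraction, and with library size alone the S-phase medians for LN332 were -0.055 in MKα3+ and -0.13 in MKα3− cells, where the median of all genes was -0.08 in each. The regional subtraction changed fold changes only and kept each adjusted p, so its counts of called members moved through the fold minimum alone. The causes were not tested, except that the fold minimum sets its own counts.

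The replicate block changed no count of called members (0 and 3 between the lines in vehicle for S-phase and mitotic genes, 3 and 4 in LN332, and 0 for LN332 in either line), while over all genes the calls for LN332 in MKα3+ cells went from 25 higher and 2 lower to 146 and 72. The labels give only numbers. Same-numbered libraries correlated above 0.1 in 2 of 4 pairs for the lines in vehicle, 3 of 4 in LN332 and 3 of 4 for LN332 in MKα3− cells, and 7, 6 and 5 of 8 libraries correlated best with their own number. With 4 libraries a group and no block, the difference of -0.39 ± 0.12 (SE) for *Nusap1* with LN332 in MKα3+ cells did not pass the test (limma adjusted p = 0.199). With the block its limma adjusted p was 0.0366, and it stayed uncalled through the fold minimum.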
